A study of Mus musculus with 4 samples.

Results

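The 10 genes described here encode proteins of the junctions that hold hepatocytes together, 10 of the 54149 genes in the deposited table. They are the classical cadherins Cdh1 and Cdh2, the catenins Ctnna1, Ctnnd1 and Jup, the claudins Cldn1, Cldn2 and Cldn3, and the tight junction membrane proteins F11r and Ocln. They were taken by gene symbol, and the choice was made with the difference between knockout and wild-type livers already known. That difference is therefore given for them as a description. Their standard errors, intervals and calls come from the fit over all genes, describe the spread between pools and are not independent evidence. The mice were adult females, C57BL/6 x 129S4/SvJae by strain. One group was a liver-specific Utx knockout and the other consisted of wild-type mice matched for age and sex. Utx, listed as Kdm6a, encodes a demethylase of lysine 27 on histone H3. Both groups were fasted for 16 h and injected intraperitoneally with 300 mg/kg acetaminophen (APAP), which injures hepatocytes at high dose. All libraries analysed here came from dosed mice, so the drug's own effect was not measured. Liver RNA of 2 mice was pooled for each library, with 2 libraries per genotype. The driver of the knockout, the liver cells that keep the gene and the time of tissue collection are not stated in the labels.

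Cadherins join neighbouring cells at adherens junctions through their outer domains, and their tails bind catenins that connect them to actin. In liver, E-cadherin is found mainly on periportal hepatocytes and on bile duct cells, while N-cadherin is present on hepatocytes more widely. Tight junctions, built from claudins, occludin and junctional adhesion molecules, seal the bile canaliculus from the blood side.

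The libraries held between 16330451 and 17804730 recovered reads, and Alb, the albumin gene, took 5.40% to 6.93% of them. Kdm6a was at 3.40 and 3.85 FPKM (fragments per kilobase, scaled by library) in wild-type and at 2.20 and 2.12 FPKM in knockout pools. Its limma adjusted p was 0.0715, above the threshold of 0.05. A value per gene does not show a deleted exon, so it checks the labels in direction alone. Of 11 tested neutrophil markers, all 11 were lower in the knockout and 4 of them passed the test. Over all tested genes, 48.6% had a log2 difference below 0 and 3.14% were called lower. The list of 16 neutrophil markers summed to 125 and 191 FPKM in wild-type pools and to 43.1 and 39.1 FPKM in knockout pools. Mitochondrial ribosomal RNA took 0.244% and 0.251% of reads in wild-type and 0.108% and 0.158% in knockout libraries. The part of neutrophils and of mitochondrial ribosomal RNA in the results on junction genes was not tested. In bulk liver, fewer cells of a type and less RNA per cell cannot be told apart.

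Cdh1, which encodes E-cadherin, was nearly lost from the knockout livers, while the other 9 genes were within 1.66-fold of their wild-type mean. Cdh1 (ENSMUSG00000000303, GRCm38 chromosome 8, 106603351 to 106670246, plus strand) had 20.7 and 19.2 FPKM in wild-type pools, against 1.05 and 0.574 FPKM in knockout pools. These levels rest on 1599, 1381, 86 and 45 reads. Both wild-type pools lay far above both knockout pools, and the mean was 24.5-fold lower in the knockout. The difference in log2(FPKM + 0.5) was -3.98 (SE 0.21, 95% confidence interval -4.53 to -3.43). Transcripts were still counted in both knockout pools, so E-cadherin mRNA was reduced and not absent.

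**Figure D1:**
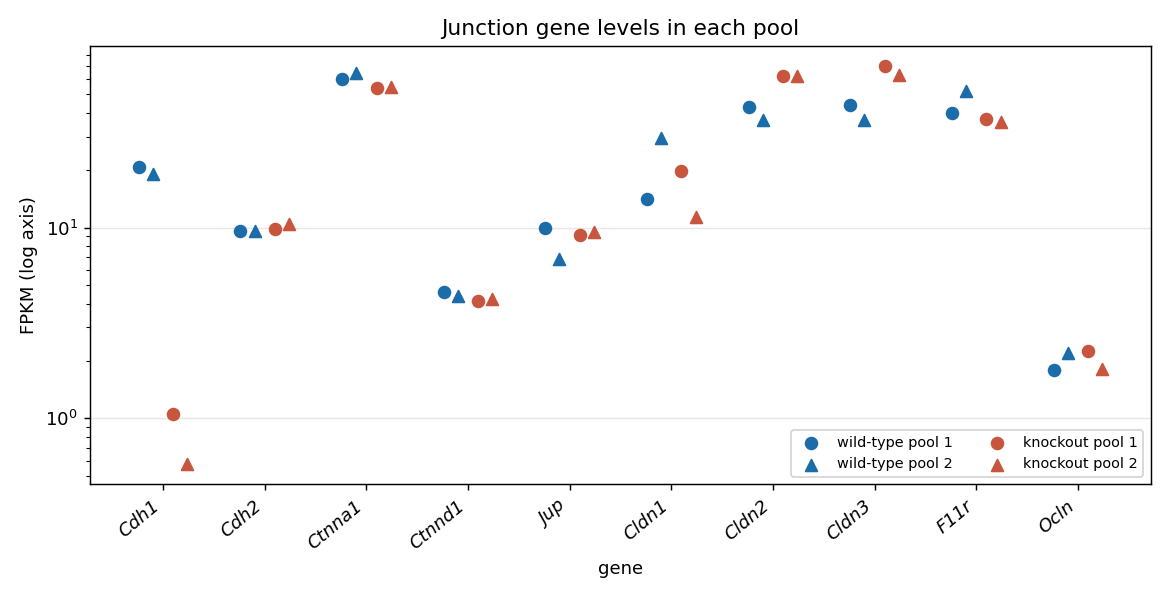
FPKM of the 10 junction genes on a log axis, with 1 point for each of the 2 wild-type (blue) and 2 knockout (red) pools. Cdh1 drops from about the level of Cldn1 to below that of Ocln, the lowest of the 10 genes in wild-type pools. Cldn1 is spread from 11.3 to 29.4 FPKM with its groups mixed, and Cldn2 and Cldn3 are higher in both knockout pools.

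Cdh2, which encodes N-cadherin, the other classical cadherin of hepatocytes, was level across the libraries. It was at 9.64 FPKM in both wild-type pools, against 9.84 and 10.5 FPKM in knockout pools. The groups did not overlap, but the log2 difference was 0.07 (SE 0.10, 95% confidence interval -0.20 to 0.34). Because FPKM is per length, the levels of the cadherins can be set against each other. The shares rest on 1 listed length per gene, 4574 bases for Cdh1 and 8066 for Cdh2. In reads, the wild-type pools held 1599 and 1381 for Cdh1 and 1314 and 1223 for Cdh2, a smaller distance in the same order. Cdh1 made up 68.2% and 66.6% of the summed FPKM of Cdh1 and Cdh2 in the wild-type pools and 9.68% and 5.19% in the knockout pools. The more abundant cadherin transcript was thus Cdh1 in wild-type and Cdh2 in knockout livers. The sum of both was 30.3 and 28.8 FPKM in wild-type and 10.9 and 11.1 FPKM in knockout pools, and did not overlap between the groups.

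**Figure D2:**
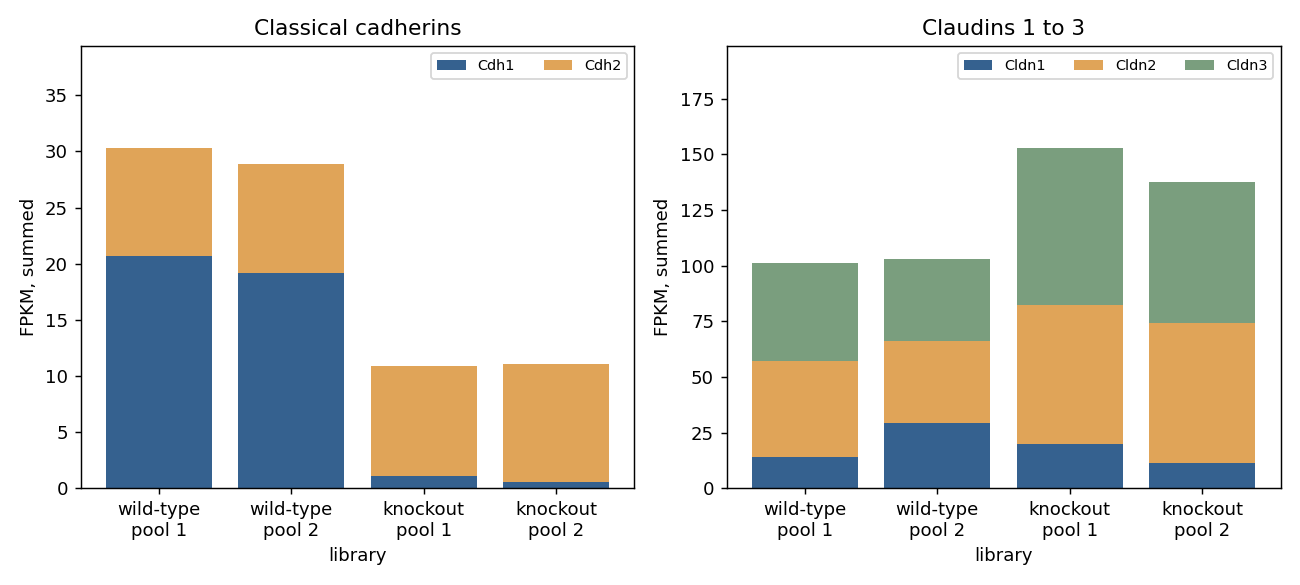
Summed FPKM of the cadherins Cdh1 and Cdh2 (left) and of the claudins Cldn1, Cldn2 and Cldn3 (right), stacked for each of the 4 libraries. The Cdh1 segment shrinks to 1.05 and 0.574 FPKM in the knockout pools beside a steady Cdh2 segment, and the claudin total is higher in both knockout pools.

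The catenins, which bind the cadherin tails, showed small differences. Ctnna1, the alpha-catenin that links the complex to actin, was the most abundant of the 10 genes over all libraries. It was at 60.5 and 65.0 FPKM in wild-type and at 53.8 and 54.6 FPKM in knockout pools, with both knockout pools lower and a log2 difference of -0.21 (SE 0.11). Ctnnd1, p120-catenin, which keeps cadherins at the membrane, was at 4.62 and 4.40 FPKM in wild-type and at 4.12 and 4.22 FPKM in knockout pools. The gap between the groups, from 4.22 to 4.40 FPKM, was similar in size to the spread within wild-type, and the log2 difference was -0.10 (SE 0.11). GENCODE M21 lists 24 protein-coding transcripts of Ctnnd1, and a value per gene does not tell them apart. Jup, plakoglobin, which is shared by adherens junctions and desmosomes, was at 9.96 and 6.86 FPKM in wild-type and at 9.10 and 9.47 FPKM in knockout pools. Its groups overlapped, and without wild-type replicate 2 the sign of its log2 difference turned from 0.16 to -0.10. Summed, the 3 catenins were at 75.6 ± 0.839 FPKM in wild-type and 67.7 ± 0.871 FPKM in knockout pools (SD, n = 2 pools).

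Cldn2 and Cldn3 were higher in both knockout pools, and Cldn1 varied more between replicate pools than either. Cldn2, a claudin that forms pores for cations and water, is known to increase toward the central vein. It was at 43.1 and 36.7 FPKM in wild-type and at 62.7 FPKM in each knockout pool. The knockout pools were nearly equal and above both wild-type pools, with a 1.57-fold higher mean and a log2 difference of 0.65 (SE 0.13, 95% confidence interval 0.32 to 0.98). Cldn3, a sealing claudin, is encoded by a gene of 1 exon. It was at 43.9 and 36.8 FPKM in wild-type and at 70.4 and 63.4 FPKM in knockout pools, with a 1.66-fold higher mean. Its log2 difference was 0.73 (SE 0.14, 95% confidence interval 0.36 to 1.10). Within each genotype, pool 1 was higher than pool 2 for Cldn3, by less than the distance between the groups. Cldn1, another sealing claudin, was at 14.1 and 29.4 FPKM in wild-type and at 19.7 and 11.3 FPKM in knockout pools. The wild-type pools thus enclosed the value of 1 knockout pool, and the log2 difference of -0.44 (SE 0.44) was 0.08 without wild-type replicate 2. Summed, Cldn1, Cldn2 and Cldn3 were at 101 and 103 FPKM in wild-type and at 153 and 137 FPKM in knockout pools.

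F11r encodes the junctional adhesion molecule JAM-A, which helps to place polarity proteins at tight junctions. It was at 39.7 and 51.9 FPKM in wild-type and at 37.1 and 35.9 FPKM in knockout pools. Both knockout pools were lower, but the wild-type pools differed from each other by more than wild-type pool 1 differed from the knockout pools (log2 difference -0.31, SE 0.16). Ocln, occludin, was the least abundant of the 10 genes over all libraries, at 1.79 and 2.20 FPKM in wild-type and at 2.26 and 1.82 FPKM in knockout pools. Its groups overlapped, with a log2 difference of 0.03 (SE 0.18), and this difference was -0.09 without wild-type replicate 1 and -0.10 without knockout replicate 1.

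**Figure D3:**
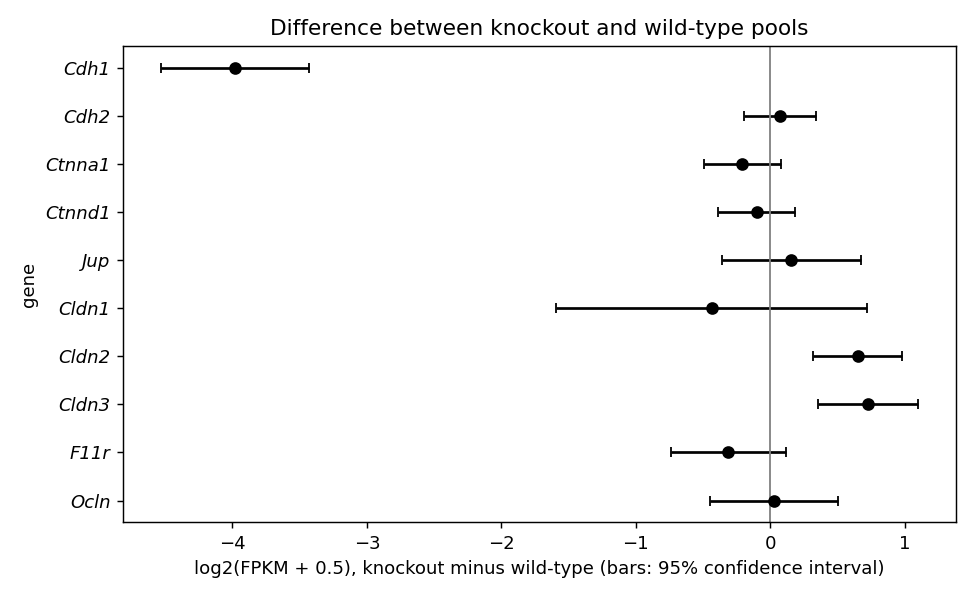
Difference in log2(FPKM + 0.5) between knockout and wild-type pools for the 10 junction genes, with 95% confidence intervals from the limma fit. Cdh1 lies at -3.98, Cldn2 and Cldn3 at 0.65 and 0.73, and the other 7 genes between -0.44 and 0.16.

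All 10 genes passed the filter of a mean of at least 1 FPKM. In the limma fit over all 11900 tested genes, 1 of the 10 (Cdh1, lower) had an adjusted p under 0.05, where 4.74% of all tested genes did (3.14% lower and 1.60% higher). The knockout pools lay below both wild-type pools for 4 genes (Cdh1, Ctnna1, Ctnnd1 and F11r) and above them for 3 (Cdh2, Cldn2 and Cldn3). Over all tested genes these shares were 29.9% and 31.6%. The median log2 difference was -0.04 over the 10 genes (0.02 rescaled to the listed reads) and 0.01 over all tested genes. Nothing is read from these counts, since the genes were chosen on this contrast. The call of Cdh1 was lost with no filter, and without wild-type replicate 1 or wild-type replicate 2 at log2 differences of -3.93 and -4.03. Because strand is not stated, overlapping antisense genes could share reads: Gm15485 at Cdh2 and Wbscr25 at Cldn3 held 0 to 5 reads in each library.

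The promoters of the claudins and of F11r are shown because Cldn2 and Cldn3 were higher together while Cldn1 and F11r were not. RefSeq promoters (GRCm38.p6) were matched to 7 of the 10 genes. No promoter of Cdh1, Cdh2 or Ctnna1 was searched, so the motif counts do not cover these genes. The 250 bases before the start site are printed 5′ to 3′ on the gene's strand, with capitals for matches on either strand. The motifs searched were the E-box CAGGTG, which Snail and Zeb proteins bind, the AP-1 motif TGANTCA, the TATA box as TATAAA, the CCAAT box, the GC box as GGGCGG and the TEAD motif CATTCC. The marked matches do not overlap each other. The windows are chrX:139800558-139800807 for Cldn2 (plus strand), chr5:134985964-134986213 for Cldn3 (plus), chr16:26371840-26372089 for Cldn1 (minus) and chr1:171437311-171437560 for F11r (plus).
Cldn2: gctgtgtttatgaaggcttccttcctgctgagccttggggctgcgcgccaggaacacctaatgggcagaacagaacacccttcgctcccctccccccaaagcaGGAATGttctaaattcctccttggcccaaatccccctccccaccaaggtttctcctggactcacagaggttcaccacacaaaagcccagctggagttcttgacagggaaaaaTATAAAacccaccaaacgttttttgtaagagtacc
Cldn3: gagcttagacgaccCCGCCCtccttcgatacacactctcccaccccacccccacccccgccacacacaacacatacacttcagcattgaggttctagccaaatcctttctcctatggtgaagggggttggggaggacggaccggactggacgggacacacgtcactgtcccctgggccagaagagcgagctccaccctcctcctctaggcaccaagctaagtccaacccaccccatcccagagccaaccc
Cldn1: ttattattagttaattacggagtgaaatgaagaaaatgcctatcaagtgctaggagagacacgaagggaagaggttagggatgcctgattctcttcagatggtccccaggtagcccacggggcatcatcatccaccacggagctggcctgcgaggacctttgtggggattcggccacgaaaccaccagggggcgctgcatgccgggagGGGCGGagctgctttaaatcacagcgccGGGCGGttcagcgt
F11r: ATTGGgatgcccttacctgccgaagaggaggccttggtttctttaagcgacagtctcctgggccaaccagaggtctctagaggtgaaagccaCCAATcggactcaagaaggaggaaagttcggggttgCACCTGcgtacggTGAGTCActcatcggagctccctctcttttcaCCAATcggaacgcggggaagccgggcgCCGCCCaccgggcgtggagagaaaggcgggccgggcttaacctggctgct

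The Cldn2 window held a TATA box and a TEAD match, and the Cldn3 window held 1 GC box. No motif of the 6 was found in both. The Cldn1 window held 2 GC boxes. In the F11r window, an E-box at bases -122 to -117 and an AP-1 match at -109 to -103 stood near each other, with 3 CCAAT matches and 1 GC box. Across the 32851 promoters in the table, 17.2% held the E-box, 6.75% the AP-1 motif, 12.4% the TATA box, 33.8% CCAAT, 32.7% the GC box and 12.6% the TEAD motif in a window of this length. Of the 7 matched genes, 2 held the E-box (F11r and Ocln) and 1 the AP-1 motif. A match is a description of the letters and not a measured binding site.

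Other genes of the same structures were counted from 4 lists (adherens junction, tight junction, gap junction and desmosome, without the 10 genes). The desmosome list includes the keratins Krt8 and Krt18. Of 109 symbols in these lists, 108 were found and 60 were tested. In these lists 1 gene fell, 0 rose and 59 did not pass (limma adjusted p under 0.05), where 3.14% of all tested genes were called lower and 1.60% higher. At an unadjusted p under 0.05, 19 of the 60 were lower and 3 higher, against 14.4% and 12.7% of all tested genes. The median log2 difference was -0.24, against 0.01 over all tested genes, and 41 of the 60 were below 0 (38 rescaled to the listed reads), where 48.6% of all tested genes were. With limma voom on recovered reads 12 were called lower and 1 higher, against 5.93% and 3.42% of all tested genes. With protein-coding genes alone 10 were called lower and 0 higher, against 5.96% and 4.01%, so the count rests on the setting. The 17 tested adherens junction genes had a median of -0.12, which was 0.01 without wild-type replicate 1. Of them 1 fell and 16 did not pass. Baiap2, an adaptor protein of the actin cytoskeleton, fell from a wild-type mean of 24.3 ± 2.29 FPKM to 10.8 ± 1.52 FPKM in knockout pools (SD, n = 2 pools, limma adjusted p = 0.0375). The call of Baiap2 was lost in 7 of 15 other settings, among them leaving out any 1 of the 4 libraries (limma adjusted p 0.0142 to 0.112 over the 15). Ctnnb1, beta-catenin, the most abundant gene of this list, was at 66.9 and 64.8 FPKM in wild-type and at 53.1 and 61.3 FPKM in knockout pools (limma adjusted p = 0.346). Actn1, an actin crosslinker, was at 12.3 and 9.31 FPKM in wild-type and at 4.82 and 5.56 FPKM in knockout pools (limma adjusted p = 0.0539). Nectin1, an adhesion protein of the immunoglobulin family, was at 7.95 ± 0.144 FPKM in wild-type and 11.1 ± 0.141 FPKM in knockout pools (SD, n = 2 pools, limma adjusted p = 0.0742).

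Of 29 other tight junction genes, 0 passed the limma test, and the median was -0.22. At an unadjusted p under 0.05, 10 were lower and 2 higher (14.4% and 12.7% of all tested genes), and voom called 5 lower (5.93% of all). The 3 with the smallest p were scaffolds of the cytoplasmic plaque. Magi3 was at 10.6 and 12.5 FPKM in wild-type and at 6.46 and 6.92 FPKM in knockout pools (limma adjusted p = 0.0524). Magi1, which has 2 rows in the table, was read from the more abundant row, at 5.55 and 6.90 FPKM against 3.55 and 3.01 FPKM (limma adjusted p = 0.0607). Cgn, cingulin, was at 5.60 and 3.91 FPKM against 2.18 and 1.66 FPKM (limma adjusted p = 0.0650). These 3 scaffolds and the claudins Cldn2 and Cldn3 thus had differences of opposite sign. Ybx3, a DNA- and RNA-binding protein found at tight junctions and the most abundant gene of this list, was at 32.7 and 28.8 FPKM in wild-type and at 28.8 and 28.4 FPKM in knockout pools (limma adjusted p = 0.609). Cldn14, named after its values were seen, was at 26.2 and 20.7 FPKM in wild-type and at 14.4 and 13.6 FPKM in knockout pools (limma adjusted p = 0.0706). Marveld3, a relative of occludin also named after its values were seen, was below the filter and not tested. It was at 0.252 FPKM in both wild-type pools, from 14 and 13 reads, and at 1.73 and 1.58 FPKM in knockout pools, from 101 and 89 reads.

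**Figure D4:**
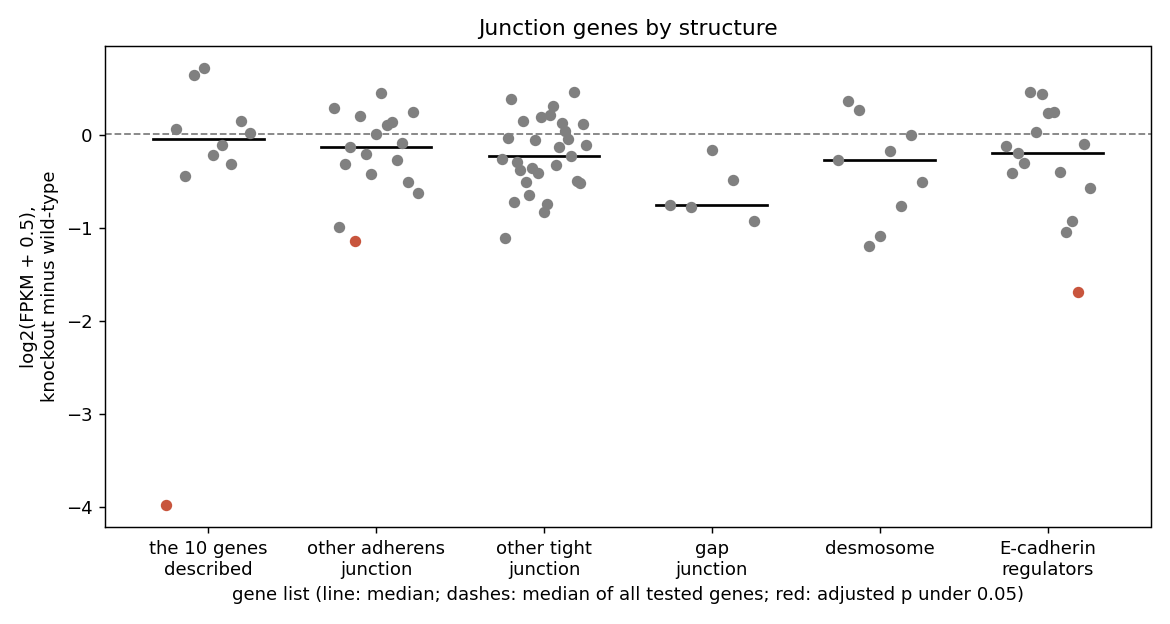
Difference in log2(FPKM + 0.5), knockout minus wild-type, for each tested gene of 6 lists, with the median of each list (black line) and of all tested genes (dashes), and genes past the adjusted threshold in red. Cdh1 at -3.98 stands below every other plotted gene, and the 5 gap junction genes are all below 0.

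Connexins, which form the channels of gap junctions, were tested for 5 genes, of which 0 passed the limma test (3 lower at an unadjusted p under 0.05, against 14.4% of all tested genes, and 2 called lower by voom, against 5.93%). The median was -0.75, and all 5 were below 0, where 48.6% of all tested genes were. That median was the value of Gja1, which passed the filter of 1 FPKM through its wild-type pools alone. With no filter, 14 connexins had a median of -0.17, with 13 below 0 and 1 above. All 5 also stayed below 0 when FPKM were scaled by the median of ratios or to the listed reads. The median was -0.32 over the 2 that passed the filter at 5 FPKM, Gjb1 and Gjb2. Gjb1 made up 78.0% and 67.4% of the summed FPKM of these 2 in wild-type pools and 76.4% and 78.1% in knockout pools. Gjb1, connexin 32, the main connexin of hepatocytes, was at 322 and 327 FPKM in wild-type and at 306 and 278 FPKM in knockout pools (limma adjusted p = 0.493). Gja1, connexin 43, was at 1.33 and 1.55 FPKM against 0.585 and 0.717 FPKM (limma adjusted p = 0.117). Gja4, connexin 37, an endothelial connexin, was at 5.83 and 6.30 FPKM against 2.90 and 3.84 FPKM (limma adjusted p = 0.0703). Gjc3 was at 2.65 and 3.08 FPKM against 1.55 and 1.04 FPKM (limma adjusted p = 0.0786). Endothelial markers were below 0 for 15 of 18 tested genes, against 48.6% of all tested genes. Of the 18, 0 passed the test, where 3.14% of all tested genes were called lower and 1.60% higher. These markers summed to 168 and 151 FPKM in wild-type and to 116 and 130 FPKM in knockout pools. The part of endothelial cells in the connexin values was not tested.

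Of 9 tested genes in the desmosome list, which includes the keratins Krt8 and Krt18, 0 passed the limma test, with a median of -0.26. At an unadjusted p under 0.05, 3 were lower (14.4% of all tested genes), and voom called 3 lower (5.93% of all). In both cases the 3 were Pkp2, Krt8 and Krt18. The keratins Krt8 and Krt18, whose filaments attach to desmosomes in hepatocytes, had log2 differences of -1.09 and -1.19. Krt18 was at 1176 ± 163 FPKM in wild-type and 522 ± 141 FPKM in knockout pools (SD, n = 2 pools, limma adjusted p = 0.0719). Krt8 was at 1634 ± 124 FPKM against 782 ± 207 FPKM (SD, n = 2 pools, limma adjusted p = 0.0786). Pkp2, plakophilin 2, which holds desmosomal cadherins to the plaque, was at 20.7 and 23.8 FPKM in wild-type and at 12.1 and 13.7 FPKM in knockout pools (limma adjusted p = 0.0518).

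Of 15 tested genes known to act on E-cadherin, 1 fell, 0 rose and 14 did not pass the limma test, where 3.14% of all tested genes were called lower. At an unadjusted p under 0.05, 5 were lower and 1 higher, against 14.4% and 12.7% of all tested genes. The one that fell belongs to a family known for repressing the E-cadherin gene. Snai3, a Snail family member, fell from a wild-type mean of 6.11 ± 0.352 FPKM to 1.57 ± 0.416 FPKM in knockout pools (SD, n = 2 pools, limma adjusted p = 0.0315), and the groups did not overlap. Its adjusted p ran from 0.0139 to 0.103 over the other settings, and its call was lost with no filter and without wild-type replicate 1, wild-type replicate 2 or knockout replicate 1. Snai1 was at 2.88 and 2.39 FPKM in wild-type and at 1.11 and 0.936 FPKM in knockout pools (limma adjusted p = 0.0530). Snai2 was at 6.82 and 5.35 FPKM against 3.22 and 2.68 FPKM (limma adjusted p = 0.0562). All 3 Snail genes were thus below 0, on counts of 26 to 233 reads, and kept that sign in each of the 14 other settings that tested them. Tcf4, below the filter and named after its values were seen, was at 0.674 and 0.597 FPKM in wild-type and at 0.834 and 0.809 FPKM in knockout pools. Hnf4a, a hepatocyte transcription factor known to activate epithelial genes and the most abundant of this list, was at 84.2 and 117 FPKM in wild-type and at 125 and 112 FPKM in knockout pools (limma adjusted p = 0.445).

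**Figure D5:**
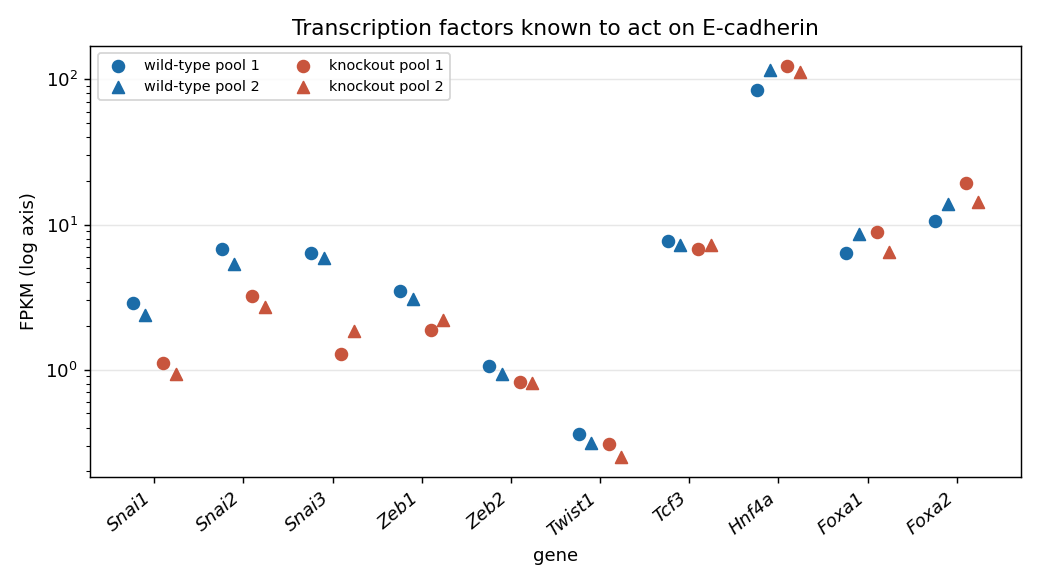
FPKM on a log axis of 10 transcription factors known to act on E-cadherin or hepatocyte genes, 1 point per pool. The knockout points (red) lie below the wild-type points (blue) for Snai1, Snai2 and Snai3, and the points overlap for Hnf4a.

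The genes whose profile over the 4 libraries was most like that of Cdh1 were Cxcl2, Egr1, Jun, Trib1 and Ier2. Likeness was the Euclidean distance between centred log2(FPKM + 0.5) values, and it was 0.95 for Cxcl2, a neutrophil chemokine, and 1.43 for Ier2, an immediate early gene. Cxcl2 was at 21.6 and 31.8 FPKM in wild-type and at 0.543 and 0.903 FPKM in knockout pools, so its knockout pools stood in the reverse order of those of Cdh1. Egr1, an immediate early transcription factor, was at 291 and 314 FPKM against 24.6 and 41.4 FPKM. Jun, a subunit of AP-1, was at 707 and 592 FPKM against 48.8 and 88.0 FPKM. In all 5 genes knockout pool 1 was below knockout pool 2, while for Cdh1 it was above. Around Cldn3, which had the largest positive difference of the 10 genes, the nearest profiles were those of Optn, Svip, Kdf1, C77080 and Hook2, at distances of 0.03 to 0.07. With 4 libraries, such closeness is a description of these pools.

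Neighbouring genes were read for Cdh1, a choice made after its values were seen. Tango6, which starts 12821 bases after the end of Cdh1 on the same strand, was at 2.10 and 2.04 FPKM in wild-type and at 1.99 and 1.85 FPKM in knockout pools. Cdh3, the P-cadherin gene, which precedes Cdh1 on the same strand, had 1 and 5 reads in wild-type and 4 and 3 in knockout pools. These were too few to show a difference. Gm10073 lies nearer, 29889 bases before Cdh1 on the opposite strand. It was at 12.6 and 15.1 FPKM in wild-type and at 11.4 and 15.9 FPKM in knockout pools, so its groups overlapped. No other gene of the table overlapped Cdh1.

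Bile duct cells and periportal hepatocytes both express E-cadherin, so their other markers are given beside it. Of 8 tested cholangiocyte markers, 1 fell, 0 rose and 7 did not pass, where 3.14% of all tested genes were called lower and 1.60% higher. The list had a median of -0.19, with 5 below 0 and 3 above. The 1 that fell was Sox9, a transcription factor of duct and progenitor cells. It fell from 13.9 and 11.1 FPKM in wild-type to 3.41 and 2.85 FPKM in knockout pools (limma adjusted p = 0.0258). The 18 markers summed to 281 and 112 FPKM in wild-type and to 53.7 and 29.3 FPKM in knockout pools, most of it from Spp1. Without Spp1 they summed to 34.4 and 22.7 FPKM against 20.0 and 16.4 FPKM. Krt19 was at 0.701 and 0.0686 FPKM in wild-type and at 0.181 and 0.440 FPKM in knockout pools, and Epcam at 2.00 and 1.06 FPKM against 1.40 and 1.29 FPKM. Cftr was at 0 in 1 pool of each group and had 2 reads in each of the others. Krt19, Epcam and Cftr overlapped between the groups, with Krt19 and Cftr too low to show a difference. Sox9 and Spp1 were lower in both knockout pools, and 2 other tested markers were higher in both. The log2 differences of the 8 ran from -2.80 to 0.67, so the list did not move in 1 direction. Over all tested genes, 29.9% were lower and 31.6% higher without overlap. At an unadjusted p under 0.05 in limma, 2 of the 8 were lower and 1 higher, against 14.4% and 12.7% of all tested genes. The part of bile duct cells in the Cdh1 values was not tested. Of 23 tested periportal markers, 3 rose (Cyp2f2, Aldh1b1 and Igfals), 0 fell and 20 did not pass, with a median of 0.39, where 1.60% of all tested genes were called higher and 3.14% lower. Cyp2f2 rose from 68.5 and 80.5 to 163 and 149 FPKM (limma adjusted p = 0.0375). Of 22 tested pericentral markers, 6 rose, 0 fell and 16 did not pass, with a median of 0.56, against the same shares. Both zonal lists thus had medians above 0, opposite in sign to Cdh1 and of the same sign as Cldn2. The part of lobular position in either value was not tested.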

How the data were processed

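Poly(A)-selected liver RNA of 4 pools was sequenced. The authors deposited FPKM for 54149 genes with gene lengths and coordinates, per the file headers. Per the submitters' processing notes, the aligner was HISAT2 (2.0.5) and the genome mm10 (GRCm38.p6). The counter and strand are not stated there. Columns were matched by genotype and replicate, leaving out 0.

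FPKM times gene length was a whole multiple of 1 step per library for 100.0% of values above 0 (within 0.01 read), which gave whole reads. The library totals behind the FPKM were 0.943 to 1.05 times the recovered sums. Replicate pools differed well beyond counting noise (chi-square per gene 31.6 in wild-type and 26.2 in knockout). P-values measure the spread between pools.

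The test was limma 3.58.1 (R 4.3.3, mean-variance trend) on log2(FPKM + 0.5), for the 11900 genes averaging 1 FPKM or more, two-sided and adjusted by Benjamini-Hochberg over all of them, with a threshold of 0.05. Fold changes on this scale understate those of low genes. On simulated data of this size the share of false calls was above the nominal rate. Alternatives were the pseudocount, filter, scaling, trend, voom, protein-coding genes alone, a replicate block and leaving out each library, and, chosen after seeing the data, a block with crossed numbers. The members and lists were chosen with earlier results of these data known.

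The 10 members were named whatever their values. From each junction list and the E-cadherin regulators, the rule took genes past the threshold and, where there were under 3, the most abundant gene and the 3 with the smallest p, and Kdm6a. It also took the 5 protein-coding genes nearest in profile to Cdh1 and to the member with the largest rise. Markers and other genes are named beside a result they touch. Figures used matplotlib 3.10.9 under Python 3.11.15.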

Additional observations from a re-analysis of the deposited data

How the results depend on the processing

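The fit called 564 genes, 374 lower and 190 higher. It called 0 with no filter, 280 with no trend, 1113 with voom, 1014 with protein-coding genes alone, 310 with the replicate block, and 0 to 234 with 1 library left out. With no filter 4388 genes had an unadjusted p under 0.05, and without wild-type replicate 2, 2662. Rescaled to the listed reads, the split was 255 lower and 211 higher. Of the 10 members, 1 was called. This was 0 with no filter, 3 with the filter at 5 FPKM, with voom and with protein-coding genes alone (Cdh1, Cldn2 and Cldn3 each time), and 0 to 1 with 1 library left out. Of the other junction genes, 1 was called lower, against 0 with no filter and with no trend, 4 with the filter at 5 FPKM, 3 scaled by the median of ratios, 12 with voom, 10 with protein-coding genes alone, 2 with crossed numbers, and 0 to 0 with 1 library left out. With voom 1 was called higher. The difference of Cdh1 kept its sign in 15 of 15 settings (log2 -4.66 to -3.54) and its call in 12. A sample left alone in its group is assumed to vary like the other group. Replicate numbers do not show pairs: the deviations of same-numbered pools correlated at -0.14. With the replicate block 1 member and 1 other junction gene were called, and with crossed numbers 552 genes were. Depth limits Ocln (128 to 170 reads) and Cdh1 in the knockout pools.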

Other observations

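Of the neighbours of F11r and Cldn2, Tstd1 and Morc4 were called lower, a choice made after the values were seen. Over all tested genes, 3.14% were called lower. Other neighbours went the other way. Ripply1, before Cldn2, was at 12.0 and 6.98 FPKM in wild-type and at 13.4 and 24.2 FPKM in knockout pools. Usf1, before F11r, was at 8.24 and 8.54 FPKM against 9.02 and 9.50 FPKM. Tstd1, the nearest protein-coding gene before F11r on the same strand at a distance of 17182 bases, fell from 11.5 and 12.3 FPKM in wild-type to 2.46 and 1.55 FPKM in knockout pools (limma adjusted p = 0.0258), on 168, 167, 38 and 23 reads. Morc4, which lies 10245 bases beyond Cldn2 on the opposite strand, fell from 5.62 and 4.67 FPKM to 1.99 and 2.12 FPKM (limma adjusted p = 0.0350), where Cldn2 was higher in the same knockout pools. Cldn4, which lies 39279 bases from Cldn3 on the opposite strand, was at 0.0977 and 0.0700 FPKM in wild-type and at 0.216 and 0.128 FPKM in knockout pools, far below Cldn3. Marveld2, tricellulin, a relative of Ocln that lies 43238 bases from it on the same strand, was at 3.48 and 3.20 FPKM in wild-type and at 4.10 and 3.83 FPKM in knockout pools (limma adjusted p = 0.309).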
